A study of Mus musculus with 68 samples.

Results

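Tfap2a, Tfap2b, Tfap2c, Twist1, Twist2, Snai1 and Snai2 were followed through the early pharyngeal arches of the mouse. They are 7 of the 21948 genes in the deposited expression table, found by matching its Ensembl identifiers to these symbols, and all 7 were expressed well enough to be tested. Ectomesenchyme is the mesenchyme that cranial neural crest cells form once they have left the neural tube and filled the arches, and it later builds the jaw, the middle ear and the hyoid. The Tfap2 genes encode AP-2 transcription factors, which act in the crest before and during migration and in the surface ectoderm. Twist1 and Twist2 encode basic helix-loop-helix factors, of which Twist1 holds cranial crest cells in a mesenchymal state. Snai1 and Snai2 encode zinc finger repressors, Snail and Slug, known for silencing cadherins and other epithelial genes when cells leave an epithelium.

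Pharyngeal arch 1 (PA1), which forms the jaws, and pharyngeal arch 2 (PA2), which forms part of the middle ear and the hyoid, had been dissected by hand and sequenced as bulk polyA RNA. The 68 libraries came from 35 embryos of the strain cross CBA/Ca/J x C57BL/10, and 33 of the embryos gave both arches. In wildtype, PA1 was represented by 5 libraries at each of the stages up to E10.0 and by 3 at E10.5, the latest of 4 stages that began with E9.0 and went on to E9.5. Wildtype PA2 had 4, 4, 5 and 3 libraries in order of stage. Embryos labelled Hoxa2-/- gave 4, 5, 5 and 3 libraries of PA1 and the same numbers of PA2. Hoxa2 encodes the homeobox factor that gives PA2 its identity, and no other allele or treatment is named for any group. The arches of an embryo share its number here, and apart from that the p-values measure only the spread between these libraries. In bulk tissue, fewer cells of a type and less RNA per cell cannot be told apart.

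Several features of the whole series bear on every value given for the 7 genes. The number of reads recovered per library was between 8912251 and 20619153. The 6 ectomesenchyme markers Prrx1, Prrx2, Pdgfra, Dlx2, Dlx5 and Msx1 were above 0 CPM (reads scaled to library size) in every library, and their sum ranged over libraries of PA1 from 520 to 656 CPM at E9.0 and from 923 to 1110 CPM at E10.5. In PA2 the ranges were 349 to 527 CPM and 715 to 792 CPM. The sum of 7 surface epithelium markers went the other way, with 637 to 1000 CPM at E9.0 and 418 to 508 CPM at E10.5 in PA1, and 566 to 1190 CPM and 337 to 417 CPM in PA2. It includes Krt18 and Krt8, whose wildtype PA1 means went from 237 to 75.2 CPM and from 216 to 83.75 CPM. The sum does not show that every marker in it fell. Heart muscle markers reached 1090 CPM in PA2 against 61.4 CPM in PA1 at E9.0. Hoxa2 RNA in PA2 was not lower under the Hoxa2-/- label, with group means of 22.3 CPM, 40.7 CPM, 47.5 CPM and 58.3 CPM in wildtype and 28.7 CPM, 60.7 CPM, 97.7 CPM and 132 CPM under the label in order of stage. Total Hoxa2 RNA therefore did not check the label, and groups are named by label only. The wildtype libraries other than those of E10.0, 24 in all, stood apart from the other 44 at 19 genes whose ranges did not overlap, none of them a member. An example was Ski, at 26.3 to 108 CPM in the 24 libraries, 9.52 to 15.5 CPM in wildtype E10.0 and 9.28 to 22.8 CPM under the label. Except at E10.0 this division and the label cannot be told apart, and at that stage all libraries lie on the same side of it, so wildtype steps into and out of E10.0 were not tested.

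The members lie at these places in GRCm38, given as the gene span of the annotation. Tfap2a (ENSMUSG00000021359) is at chr13:40715302-40738376 on the minus strand. Tfap2b (ENSMUSG00000025927) and Twist2 (ENSMUSG00000007805) share chromosome 1, at chr1:19208914-19238576 and chr1:91801461-91848028. Snai1 (ENSMUSG00000042821) and Tfap2c (ENSMUSG00000028640) share chromosome 2, at chr2:167538195-167542814 and chr2:172549593-172558622. Twist1 (ENSMUSG00000035799) is at chr12:33957671-33959829 and Snai2 (ENSMUSG00000022676) at chr16:14705852-14709385, these and the others on the plus strand.

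The 7 genes differed widely in level. Set on a scale that allows genes to be compared, CPM per kilobase of exon, wildtype PA1 at E9.0 had 42.7 for Twist1, 19.8 for Snai2, 11.4 for Snai1, 2.80 for Tfap2b, 1.75 for Tfap2a, 1.41 for Tfap2c and 0.443 for Twist2. At E10.5 the same arch had 40.1 for Snai2, 34.3 for Twist1, 6.83 for Tfap2c, 5.88 for Twist2, 5.10 for Snai1, 2.50 for Tfap2b and 0.695 for Tfap2a. In wildtype PA2 the order at E10.5 was Snai2 at 30.6, Twist1 at 29.3, Twist2 at 8.98, Snai1 at 5.85, Tfap2b at 3.59, Tfap2c at 3.35 and Tfap2a at 0.735 CPM per kilobase. The neighbours Snai2 and Twist1, and Tfap2b and Tfap2c, were close in PA2 at that stage, and no test between genes was made. Twist1 was the highest of the 7 genes per kilobase in 45 libraries and Snai2 in the other 23. Twist1 was the highest in all 9 PA1 libraries of E9.0, and Snai2 was the highest in all 6 PA1 libraries of E10.5. Within families, Twist1 lay above Twist2 and Snai2 above Snai1 in all 68 libraries, whereas the leading Tfap2 gene was Tfap2c in 46 libraries, Tfap2b in 16 and Tfap2a in 6.

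**Figure D1:**
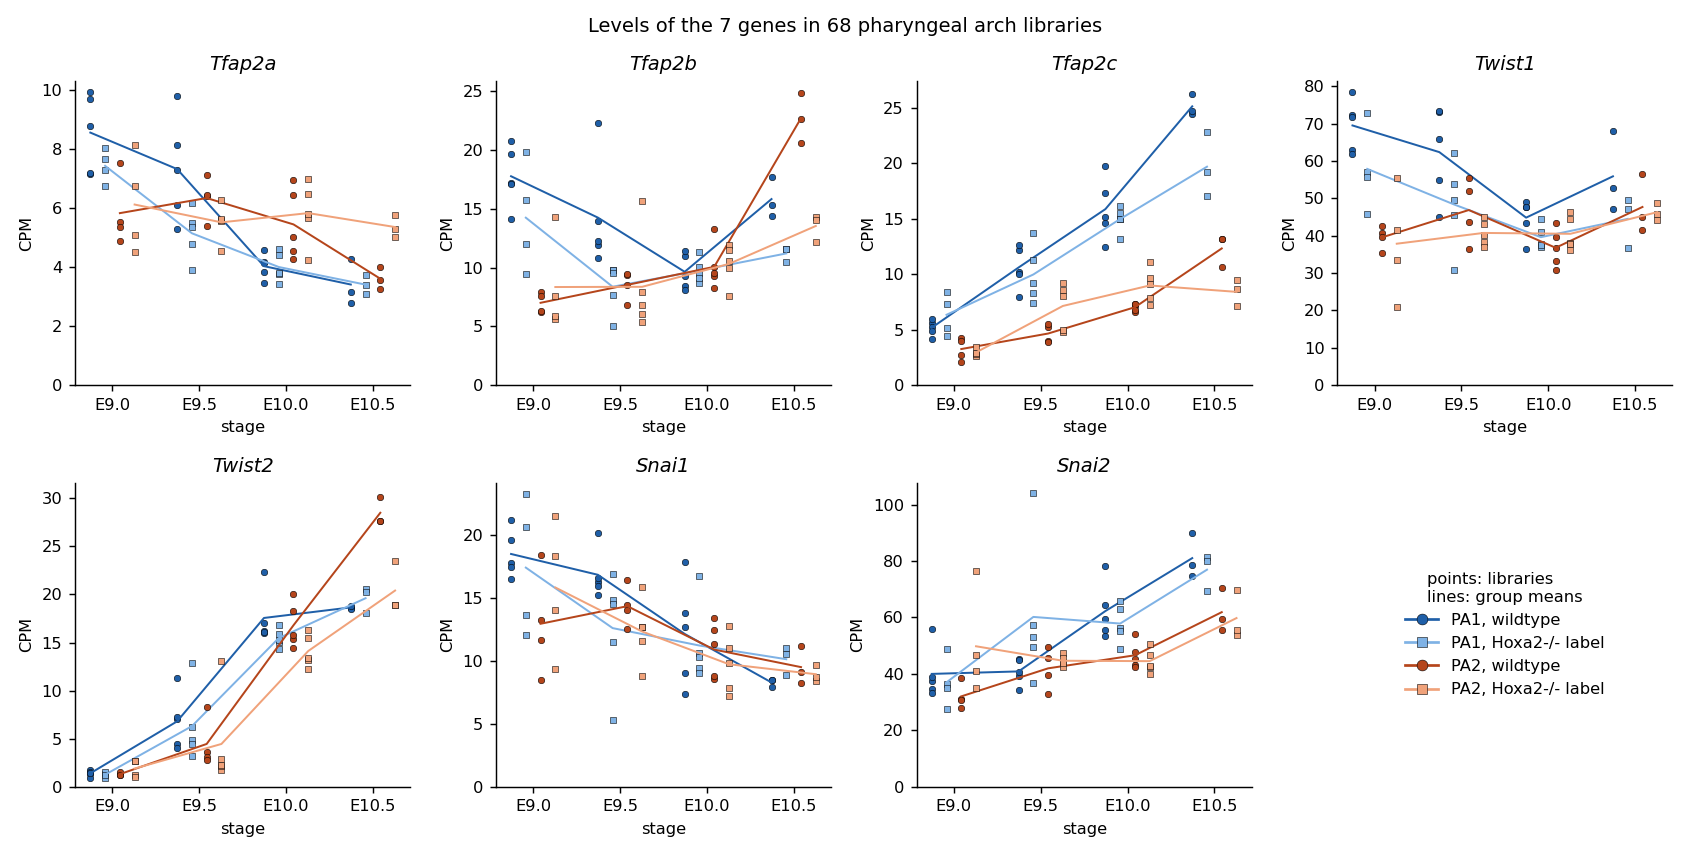
CPM of the 7 genes, on linear axes from 0, against embryonic stage, with a point for each of the 68 libraries and a line through the group means, by arch and label. Twist2 and Tfap2c lie higher at E10.5 than at E9.0 in every arch and label, with wildtype PA1 means going from 1.41 to 18.7 CPM and from 5.18 to 25.1 CPM, while Tfap2a falls from 8.55 to 3.41 CPM.

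PA2 was compared with PA1 to ask how the arches differ within a stage. Each difference is in log2(CPM + 1), PA2 minus PA1, from a limma fit over all 68 libraries, and a gene counts as lower or higher where its p adjusted over the 18428 tested genes was under 0.05. Of the 7 genes, 4 were lower in wildtype PA2 at E9.0 (Tfap2a, Tfap2b, Tfap2c and Twist1), where 18.7% of all tested genes differed. At E9.5 there were 2 lower (Tfap2b and Tfap2c, all genes 26.3%), at E10.0 1 lower (Tfap2c, all genes 5.94%) and at E10.5 1 lower (Tfap2c, all genes 1.52%). No member was higher in wildtype PA2 at any stage. Under the Hoxa2-/- label, 3 were lower in PA2 at E9.0 (Tfap2b, Tfap2c and Twist1), where 24.6% of all genes differed. At E9.5 no member passed (all genes 9.58%), with 3 of 7 at an unadjusted p under 0.05 and 0 by edgeR. At E10.0 Tfap2c was lower and Tfap2a higher (all genes 4.23%), and at E10.5 Tfap2c was lower (all genes 1.37%). The median difference of the 7 genes in wildtype was -0.53 at E9.0 and 0.07 at E10.5, where that of all tested genes was -0.01 at both stages.

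**Figure D2:**
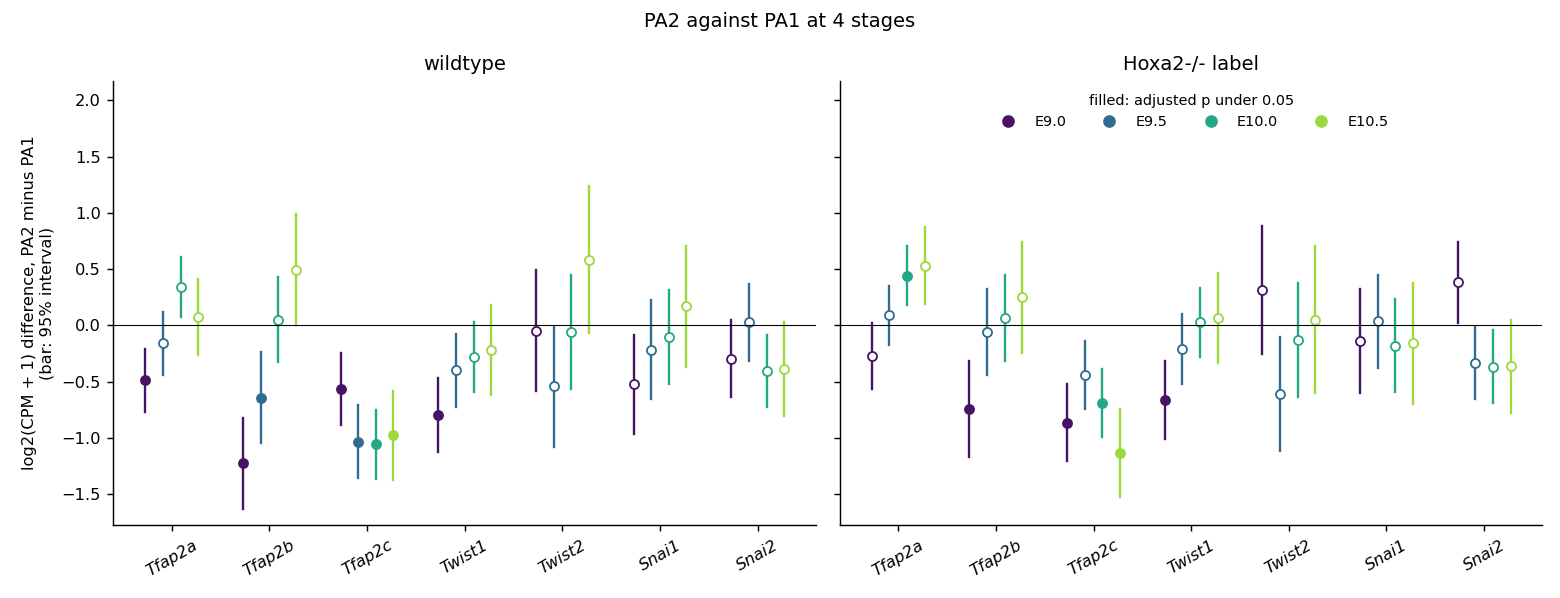
Differences between PA2 and PA1 in log2(CPM + 1) for the 7 genes at 4 stages, with 95% intervals, for wildtype and for the Hoxa2-/- label. Filled points have an adjusted p under 0.05. Tfap2c lies under 0 throughout, at -0.56, -1.03, -1.06 and -0.98 in wildtype, and Tfap2b moves from -1.23 at E9.0 to 0.50 at E10.5.

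Tfap2c was the AP-2 gene with a lasting difference between the arches. In wildtype PA1 its levels were 5.59, 4.12, 5.28, 4.9 and 5.99 CPM at E9.0, 10.2, 12.2, 7.93, 10 and 12.7 CPM at E9.5, 14.6, 12.5, 19.8, 15.1 and 17.3 CPM at E10.0, and 24.5, 26.2 and 24.7 CPM at E10.5. In wildtype PA2 they were 4.22, 2.67, 2.1 and 4 CPM at E9.0 (embryos 1, 2, 4 and 5), 3.97, 5.21, 3.86 and 5.55 CPM at E9.5, 7.16, 7.29, 6.55, 7.29 and 6.81 CPM at E10.0, and 13.1, 13.2 and 10.6 CPM at E10.5. The arches overlapped at E9.0, through 1 PA2 library at 4.22 CPM above the lowest PA1 library, and at no later stage. PA1 means were 1.59, 2.28, 2.26 and 2.04 times those of PA2. On the log2 scale Tfap2c was lower in PA2 by -0.56 (SE 0.16, adjusted p = 0.0089), -1.03 (SE 0.16, adjusted p = 3.4e-06), -1.06 (SE 0.15, adjusted p = 6.7e-07) and -0.98 (SE 0.20, adjusted p = 0.00092) at the 4 stages. The call at E9.0 was lost without wildtype PA2 embryo 4 (adjusted p = 0.084) and without the 8 libraries with blood or yolk sac transcripts (-0.51, adjusted p = 0.067).

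The same direction held under the Hoxa2-/- label. Tfap2c means were 6.34 ± 1.85, 9.97 ± 2.53, 15 ± 1.11 and 19.7 ± 2.91 CPM (SD, n = 4, 5, 5 and 3) in PA1 and 2.95 ± 0.335, 7.13 ± 2.07, 8.98 ± 1.54 and 8.4 ± 1.16 CPM in PA2. Differences were -0.86 (adjusted p = 0.00012) at E9.0, -0.69 (adjusted p = 0.0021) at E10.0 and -1.14 (adjusted p = 9.6e-05) at E10.5, with no overlap of libraries. At E9.5 the difference of -0.44 missed the threshold (adjusted p = 0.052) and the libraries overlapped, but with the embryo as a block it passed (adjusted p = 0.0063). Read embryo by embryo, Tfap2c was lower in PA2 in 16 of 16 wildtype embryos and in 17 of 17 embryos with the label, with differences of -1.46 to -0.34 and -1.31 to -0.09 on the log2 scale. The ectomesenchyme marker sum was also lower in PA2 without overlap, at 349 to 423 CPM against 588 to 630 CPM in wildtype PA1 at E9.0 and at 555 to 779 CPM against 823 to 1140 CPM over both labels at E10.0. Its part in this difference, and in those of the other members at E9.0, was not tested.

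**Figure D3:**
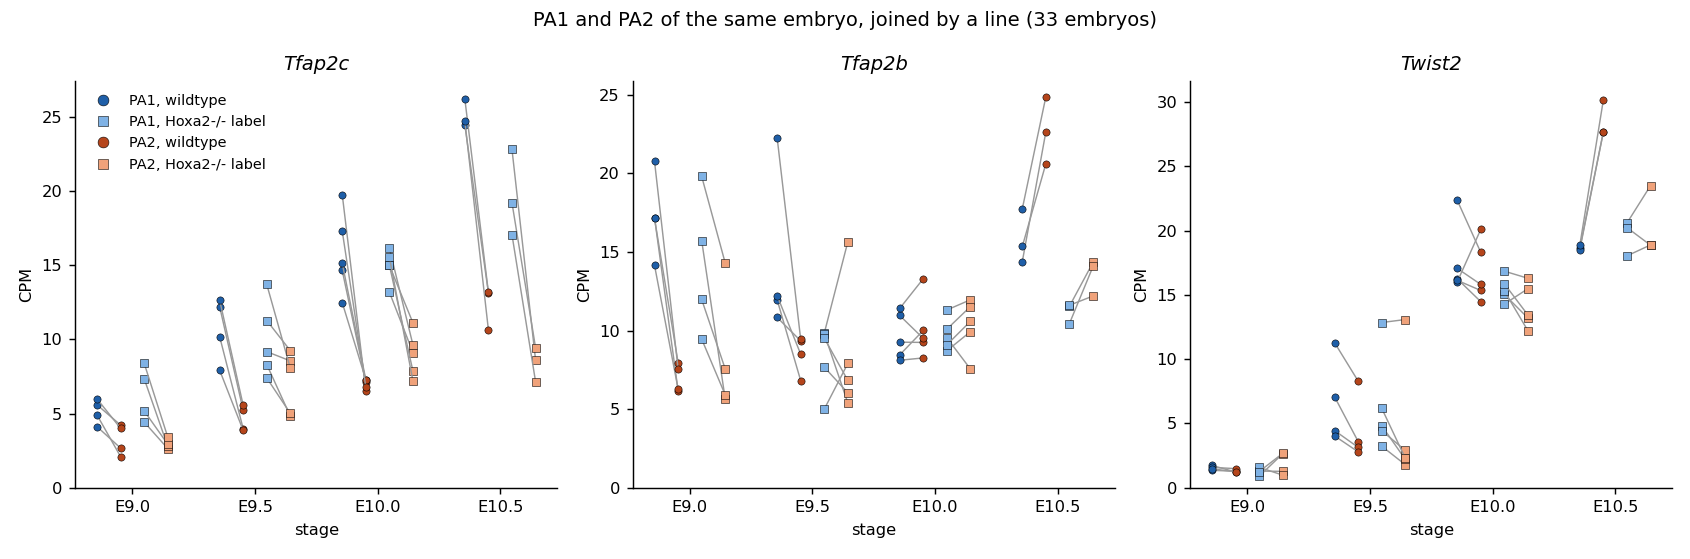
CPM of Tfap2c, Tfap2b and Twist2, on linear axes from 0, in PA1 and PA2 of the same embryo, with a line for each of the 33 embryos that gave both arches, by stage and label. Every Tfap2c line falls from PA1 to PA2. Tfap2b lines fall in all 4 wildtype embryos of E9.0 and rise in all 3 of E10.5.

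In wildtype, the difference of Tfap2b between the arches depended on stage, with PA2 lower at E9.0 and E9.5 and no difference past the threshold later. At E9.0 it read 17.2, 17.1, 19.6, 14.1 and 20.8 CPM in wildtype PA1 and 6.18, 7.96, 6.29 and 7.58 CPM in PA2, so PA1 was 2.54 times as high and the groups were far apart. At E10.5 it read 17.8, 14.4 and 15.4 CPM in PA1 and 24.9, 22.7 and 20.6 CPM in PA2, again without overlap but with PA2 higher by 1.43 times. The differences were -1.23 (SE 0.20, adjusted p = 7.1e-06) at E9.0, -0.64 (SE 0.20, adjusted p = 0.014) at E9.5, 0.05 (adjusted p = 0.93) at E10.0 and 0.50 (SE 0.25, adjusted p = 0.69) at E10.5. The call at E9.5 was lost without wildtype PA1 embryo 3, which had the highest Tfap2b level of its group, at 22.3 CPM (-0.48, adjusted p = 0.089), and also without wildtype PA2 embryo 1. PA2 was lower in all 4 wildtype embryos with both arches at E9.0 and higher in all 3 at E10.5. Under the label the difference was -0.75 (adjusted p = 0.0071) at E9.0, a call that was lost without PA1 embryo 3 of that group (adjusted p = 0.058). The label difference was -0.06 at E9.5, with means of 8.37 CPM in PA1 and 8.36 CPM in PA2, and 0.25 (adjusted p = 0.8) at E10.5.

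The change of the arch difference from E9.0 to E10.5 was tested directly, a comparison added after the levels had been seen. In wildtype 1 of the 7 genes passed, Tfap2b, where 3.35% of all genes did: its arch difference moved by 1.72 (SE 0.32, adjusted p = 0.00028). Under the label 2 passed, where 7.33% of all genes did, namely Tfap2b at 1.00 (SE 0.33, adjusted p = 0.047) and Tfap2a at 0.80 (SE 0.22, adjusted p = 0.02). The call for Tfap2b under the label was lost without each of 11 libraries in turn, with adjusted p up to 0.12, and by edgeR (adjusted p = 0.078). That for Tfap2a was lost without E10.5 embryo 3 with the label, PA1 or PA2 (adjusted p up to 0.055). With the embryo as a block, Twist1 (0.73, adjusted p = 0.075 without it and 0.041 with it) and Snai2 (-0.75, adjusted p = 0.08 and 0.036) under the label also passed.

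Tfap2a, the AP-2 gene best known for its part in closing the face and neural tube, was the lowest of its family per kilobase by E10.5. Wildtype PA1 libraries held 7.16, 9.7, 9.94, 7.18 and 8.79 CPM at E9.0 and wildtype PA2 libraries 4.89, 7.54, 5.52 and 5.36 CPM. PA2 was lower by -0.49 (SE 0.14, adjusted p = 0.009), in all 4 embryos with both arches, although the libraries overlapped. At later stages no wildtype difference passed, with 0.34 (adjusted p = 0.12) at E10.0. Under the label PA2 stood higher at E10.0, at 5.65, 6.46, 4.23, 5.81 and 6.99 CPM against 4.39, 3.77, 4.62, 3.8 and 3.43 CPM in PA1 (0.44, adjusted p = 0.039), with 1 PA2 library inside the PA1 range. That call was lost without any of 7 libraries (adjusted p up to 0.13). At E10.5 PA2 with the label held 5.03, 5.28 and 5.75 CPM and PA1 3.73, 3.4 and 3.08 CPM, no overlap and higher in 3 of 3 embryos, yet past no threshold (0.53, adjusted p = 0.13). Counting did not have a stated strand. The Tfap2a span is overlapped by the antisense genes Gm47061 (at most 0.653 CPM), Gm26688 (0.188 to 1.48 CPM) and Gm47067, the last not analysed here. Whether they share exon sequence with Tfap2a, where reads could not be told apart without strand, was not checked.

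The make-up of the AP-2 family shifted with stage in each arch. As a share of the summed Tfap2a, Tfap2b and Tfap2c level per kilobase, Tfap2c went in wildtype PA1 from 23.7 ± 3.16% at E9.0 to 44.0 ± 10.0%, 64.6 ± 3.09% and 68.2 ± 2.95% at E10.5 (SD, n = 5, 5, 5 and 3). In wildtype PA2 its mean share went from 27.7% through 32.3% and 41.5% to 43.6%. Tfap2b went from 47.0% to 24.9% of the family in wildtype PA1 and went from 34.8% to 46.8% in PA2. Tfap2a went from 29.3% to 6.93% in wildtype PA1, from 37.5% to 9.64% in wildtype PA2 and from 37.2% to 19.95% in PA2 with the label. These shares are a description and were not tested.

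**Figure D4:**
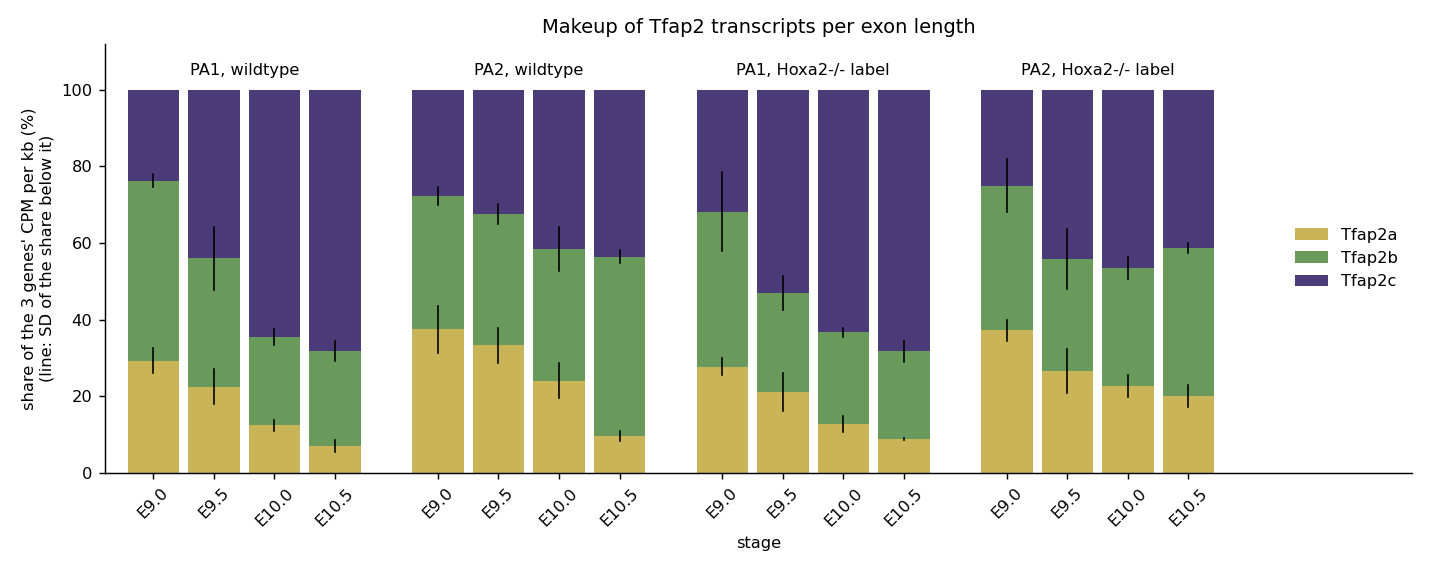
Mean share in percent of Tfap2a, Tfap2b and Tfap2c in their summed CPM per kilobase, as stacked bars by stage for each arch and label, with a black line for the SD of the share under it over 3 to 5 libraries. Tfap2c takes 68.2% in wildtype PA1 and 43.6% in wildtype PA2 at E10.5, where Tfap2b takes 24.9% and 46.8%.

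Upstream sequences of the Twist genes and Snai1 are shown because the Twist genes, products of close relatives, behaved differently over these stages and because AP-2 and Snail factors are members. RefSeq promoter entries (build GRCm38.p6) were found for 5 of the 7 genes, 6 starts in all, and none for Tfap2c or Snai2. The 250 bases before the start lie at chr12:33957421-33957670 for Twist1, chr1:91801211-91801460 for Twist2 and chr2:167537945-167538194 for Snai1, all on the plus strand. Capitals mark matches on either strand to CANNTG, the E-box read by basic helix-loop-helix factors, and to GCCNNNGGC, the core bound by AP-2 proteins.
Twist1: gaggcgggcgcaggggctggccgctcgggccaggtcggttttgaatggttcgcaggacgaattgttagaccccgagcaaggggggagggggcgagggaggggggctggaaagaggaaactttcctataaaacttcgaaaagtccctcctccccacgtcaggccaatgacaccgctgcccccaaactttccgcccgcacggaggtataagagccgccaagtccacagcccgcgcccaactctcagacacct
Twist2: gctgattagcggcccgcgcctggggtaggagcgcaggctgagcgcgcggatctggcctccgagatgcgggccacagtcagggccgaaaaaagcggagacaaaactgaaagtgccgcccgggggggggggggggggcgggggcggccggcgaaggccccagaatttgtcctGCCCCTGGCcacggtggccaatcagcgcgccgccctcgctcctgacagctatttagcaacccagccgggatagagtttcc
Snai1: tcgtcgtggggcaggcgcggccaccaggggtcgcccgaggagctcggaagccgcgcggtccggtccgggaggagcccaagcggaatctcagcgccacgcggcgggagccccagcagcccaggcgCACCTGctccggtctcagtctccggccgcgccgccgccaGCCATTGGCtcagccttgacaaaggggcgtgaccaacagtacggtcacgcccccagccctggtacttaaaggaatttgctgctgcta
Twist1 had neither motif in this window. It had TATAAA 126 bases and CCAAT 89 bases before the start. Twist2 had GCCNNNGGC 80 bases and CCAAT 63 bases before the start. Snai1 had CANNTG 126 bases before the start, which is also CAGGTG on the other strand, the form of E-box read by Snail factors, then GCCNNNGGC 87 bases before it, overlapping CCAAT on the other strand. Of 32851 RefSeq promoters of this length, 66.2% held CANNTG, 17.2% CAGGTG, 13.7% GCCNNNGGC, 12.4% TATAAA and 33.8% CCAAT, each counted on both strands and every CAGGTG counted within CANNTG. G and C made up 62.4%, 68.8% and 70.0% of the Twist1, Twist2 and Snai1 windows against a median of 52.4%. These matches describe letters only.

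Twist1 differed between the arches at E9.0. Wildtype PA1 held 62.9, 72.4, 78.5, 61.9 and 71.9 CPM and wildtype PA2 40.8, 42.5, 39.6 and 35.3 CPM, so that the lowest PA1 library lay well above the highest PA2 library and PA1 was 1.76 times as high. The ectomesenchyme marker sum moved with it in the same libraries, at 349 to 423 CPM in PA2 and 588 to 630 CPM in PA1, and its part was not tested. The Twist1 difference was -0.80 (SE 0.16, adjusted p = 0.00025). It was -0.40 (adjusted p = 0.062) at E9.5, -0.28 (adjusted p = 0.32) at E10.0 and -0.22 (adjusted p = 1.0) at E10.5, where the 95% interval ran from -0.62 to 0.18. Under the label the E9.0 values were 57.1, 72.8, 45.9 and 55.7 CPM in PA1 and 21, 41.4, 55.5 and 33.6 CPM in PA2, which overlap. That difference of -0.66 (adjusted p = 0.003) did not pass without PA2 embryo 1, the library at 21 CPM (-0.42, adjusted p = 0.059). Twist1 was lower in PA2 in 15 of 16 wildtype embryos over all stages and in 11 of 17 embryos with the label.

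Twist2, also called Dermo1 and known from dermal and skeletal precursors, did not differ past the threshold between the arches at any stage in the fit without an embryo block. At E9.5 its levels were 7.07, 4.45, 4.03, 7.21 and 11.3 CPM in wildtype PA1 and 3.6, 3.14, 2.79 and 8.29 CPM in PA2 (embryos 1, 2, 3 and 5), a difference of -0.54 (SE 0.27, adjusted p = 0.13) with PA2 lower in all 4 embryos with both arches, and with the embryo as a block it passed (-0.50, adjusted p = 0.012). It also passed without PA2 embryo 5 (adjusted p = 0.031). Under the label PA1 held 3.23, 4.82, 4.44, 12.9 and 6.18 CPM and PA2 1.79, 2.21, 2.9, 13.1 and 2.29 CPM. The difference there was -0.61 (adjusted p = 0.12), or -1.03 (adjusted p = 0.00039) without PA2 embryo 4 and past the threshold with the embryo as a block (adjusted p = 0.0021). The embryo highest in PA1 was also the highest in PA2 under both labels, embryo 5 in wildtype and embryo 4 under the label. The latter embryo had the highest ectomesenchyme marker sums of its groups, 891 CPM in PA1 and 727 CPM in PA2, and the lowest surface epithelium sums, 596 CPM and 499 CPM, and the part of these in its Twist2 level was not tested. At E10.5 wildtype PA2 held 27.7, 27.7 and 30.2 CPM and PA1 18.6, 18.5 and 18.8 CPM. PA2 was higher in 3 of 3 embryos without overlap, by 1.53 times, with a difference of 0.58 (SE 0.33, adjusted p = 0.82 in the fit over all groups and 0.008 in a fit of these groups alone). The antisense gene Gm29100 (at most 3.81 CPM) overlaps the Twist2 span, as does Gm29101 (at most 3.9 CPM), on the same strand within a Twist2 intron. Whether either shares exon sequence with Twist2, where reads could be mixed, was not checked.

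Neither Snail gene differed past the threshold between the arches. Snai1 had wildtype means of 18.5 ± 1.87 CPM in PA1 and 12.9 ± 4.15 CPM in PA2 at E9.0 (SD, n = 5 and 4), a difference of -0.53 (SE 0.22, adjusted p = 0.088) that passed without PA2 embryo 2 (adjusted p = 0.031), the library with 53900 CPM of erythroid transcripts. Snai2 held 78.5, 89.8 and 74.7 CPM in wildtype PA1 and 70.6, 59.5 and 55.5 CPM in PA2 at E10.5, with no overlap and PA1 1.31 times as high, yet the difference of -0.39 had an adjusted p of 0.77. Snai2 was lower in PA2 in every embryo with both arches at E10.0 and E10.5, 5 of 5 and 3 of 3 under each label. The earlier stages were mixed. At E9.0 Snai2 was higher in PA2 in 1 of 4 wildtype embryos and 3 of 4 with the label. At E9.5 it was higher in PA2 in 3 of 4 wildtype embryos and 1 of 5 with the label. Differences for Snai2 at E10.0 were -0.40 (adjusted p = 0.14) in wildtype and -0.37 (adjusted p = 0.21) under the label.

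Stages were compared within each arch and label to ask how the 7 genes move as the arches grow. In wildtype PA1, 2 genes rose from E9.0 to E9.5 (Tfap2c and Twist2, all genes 6.73%). From E9.5 to E10.5, 3 rose and 2 fell (all genes 40.9%), and from E9.0 to E10.5 again 3 rose and 2 fell (all genes 42.5%). In wildtype PA2, 1 rose from E9.0 to E9.5 (Twist2, all genes 6.68%), 4 rose and 1 fell from E9.5 to E10.5 (all genes 34.3%), and 4 rose and 1 fell from E9.0 to E10.5 (all genes 36.9%). Under the label in PA1, 3 rose and 1 fell from E9.0 to E9.5 (all genes 2.85%), 2 rose from E9.5 to E10.0 (all genes 4.4%) and 3 rose and 2 fell from E9.0 to E10.5 (all genes 31.2%). Under the label in PA2, 1 rose from E9.0 to E9.5 (Tfap2c, all genes 16.9%), 1 from E9.5 to E10.0 (Twist2, all genes 4.57%), and 3 rose and 1 fell from E9.0 to E10.5 (all genes 30.9%). The calls from E9.0 to E9.5 in PA1 with the label were fragile: those for Tfap2b, Tfap2c and Snai2 were each lost without any of 4 or 5 libraries, E9.0 embryos 1 and 3 and E9.5 embryo 4 among them for all 3 genes. From E10.0 to E10.5 under the label no member passed in PA1 (all genes 0.298%, 2 members at an unadjusted p under 0.05, 0 by edgeR) or PA2 (all genes 0.239%, 1 member unadjusted, 0 by edgeR).

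Twist2 had the largest rise of the 7 genes in each of the 4 comparisons of E10.5 with E9.0. At E9.0 it was at 1.36, 1.73, 0.871, 1.59 and 1.47 CPM in wildtype PA1 and at 1.29, 1.23, 1.49 and 1.24 CPM in wildtype PA2, close to the 1 CPM used to admit genes. At E10.0 it had reached 22.4, 16.2, 16, 16.1 and 17.1 CPM in PA1 and 18.3, 14.5, 20.1, 15.3 and 15.8 CPM in PA2. E10.5 means were 13.3 times those of E9.0 in wildtype PA1, 21.7 times in wildtype PA2, and 15.6 and 10.8 times under the label, with no overlap in any. The log2 differences were 3.04 (SE 0.29, adjusted p = 1.3e-12), 3.67 (SE 0.31, adjusted p = 1.7e-14), 3.19 (adjusted p = 4.5e-12) and 2.93 (adjusted p = 4.2e-11). As a share of the summed Twist level per kilobase, Twist2 went from 1.04% to 14.9% in wildtype PA1 and from 1.68% to 23.7% in wildtype PA2. The rise in wildtype PA2 from E9.0 to E9.5 (1.14, adjusted p = 0.0091) was lost without embryo 5 (0.85, adjusted p = 0.11). Twist1 did not pass in any of these 4 comparisons, at -0.32, 0.26, -0.36 and 0.36, although the last passed without PA2 embryo 3 of E9.0 with the label (adjusted p = 0.015).

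Tfap2c also rose from E9.0 to E10.5 in every arch and label, with E10.5 means 4.85 and 3.79 times those of E9.0 in wildtype PA1 and PA2 and 3.11 and 2.85 times under the label, and without overlap. Differences were 2.09 (SE 0.18, adjusted p = 1.7e-14), 1.68 (SE 0.18, adjusted p = 8.8e-11), 1.52 (adjusted p = 3.1e-09) and 1.25 (adjusted p = 2.6e-07). Tfap2a fell over these stages in wildtype PA1 (-1.12, SE 0.15, adjusted p = 2e-08), wildtype PA2 (-0.56, adjusted p = 0.0043) and PA1 with the label (-0.94, adjusted p = 5.4e-06). In PA2 with the label Tfap2a was at 4.52, 6.74, 8.14 and 5.08 CPM at E9.0 and 5.03, 5.28 and 5.75 CPM at E10.5, which overlap (-0.14, adjusted p = 0.56). Tfap2b rose in PA2, by 1.57 (SE 0.23, adjusted p = 1.7e-07) or 3.24 times in wildtype and by 0.72 (adjusted p = 0.012) under the label, the latter lost without PA2 embryo 1 or 4 of E9.0 or embryo 1 of E10.5 (adjusted p up to 0.056). In PA1 Tfap2b was -0.15 (adjusted p = 0.61) and -0.27 (adjusted p = 0.39). The surface epithelium marker sum was lower and the ectomesenchyme marker sum higher at E10.5 than at E9.0. The migratory crest and glia sum was lower, with medians of 85.1 CPM at E9.0 and 18.9 CPM at E10.5 in PA1 and of 87.6 CPM and 23.0 CPM in PA2. The part of these sums in these changes was not tested.

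The Snail genes went apart. Snai2 at E9.0 was at 34.7, 33.3, 37.3, 55.8 and 38.8 CPM in wildtype PA1 and 38.4, 27.8, 31.2 and 30.7 CPM in wildtype PA2, under every E10.5 library of the same arch. It rose by 1.02 (SE 0.19, adjusted p = 9.1e-06) in wildtype PA1, 0.93 (SE 0.19, adjusted p = 0.00011) in wildtype PA2 and 1.06 (adjusted p = 2e-05) in PA1 with the label. In PA2 with the label the E9.0 libraries were at 46.8, 34.8, 40.9 and 76.6 CPM and overlapped those of E10.5 (0.31, adjusted p = 0.23), and without embryo 4, the library at 76.6 CPM, the rise passed (adjusted p = 0.027). Snai1 was at 17.7, 16.5, 21.1, 17.4 and 19.6 CPM in wildtype PA1 at E9.0. By E10.5 it was at 7.9, 8.44 and 8.48 CPM there, with no overlap. Snai1 thus fell in wildtype PA1 (-1.06, SE 0.24, adjusted p = 0.00025), and it also fell in PA1 and PA2 with the label (-0.68, adjusted p = 0.031, and -0.70, adjusted p = 0.026). Each of these label calls was lost without any of 4 libraries: embryo 1 or 3 of E9.0 or embryo 1 or 2 of E10.5 in PA1 (adjusted p up to 0.13), and embryo 2 or 3 of E9.0 or of E10.5 in PA2 (adjusted p up to 0.12). In wildtype PA2 its change of -0.37 had an adjusted p of 0.25. Snai2 took 63.0% of the summed Snail level per kilobase in wildtype PA1 at E9.0 and 88.7% at E10.5, and 66.9% and 83.8% in wildtype PA2.

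Embryos labelled Hoxa2-/- were compared with wildtype at each stage, the comparison the study was built for. In PA1, no member passed at E9.0 (all genes 2.08%), E10.0 (all genes 0%) or E10.5 (all genes 3.05%), with 0 members at an unadjusted p under 0.05 and 0 by edgeR at each of these stages. At E10.0 in PA1, 424 of all tested genes had an unadjusted p under 0.05 and edgeR called 0. At E9.5 in PA1, 3 of 7 passed, Snai2 higher and Tfap2a and Tfap2b lower, where 23.6% of all genes did. In PA2, 1 of 7 passed at E9.0 (Snai2 higher, all genes 14%). No member passed in PA2 at E9.5 (all genes 4.48%, 1 member unadjusted, and Tfap2c called by edgeR at 0.63 with adjusted p = 0.038 against 0.50 and 0.06 by limma), at E10.0 (all genes 0.0814%, 0 members unadjusted, 0 by edgeR) or at E10.5 (all genes 10.3%, 3 members unadjusted, 0 by edgeR). The difference between these effects in PA2 and in PA1 passed for no member at E9.0 (all genes 0%), E9.5 (all genes 0.0109%), E10.0 (all genes 0.0163%) or E10.5 (all genes 0.038%). Of the 28 tests of that difference 3 had an unadjusted p under 0.05 and 0 were called by edgeR, and at E9.0 1083 of all genes were under 0.05 unadjusted with 0 called by edgeR.

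**Figure D5:**
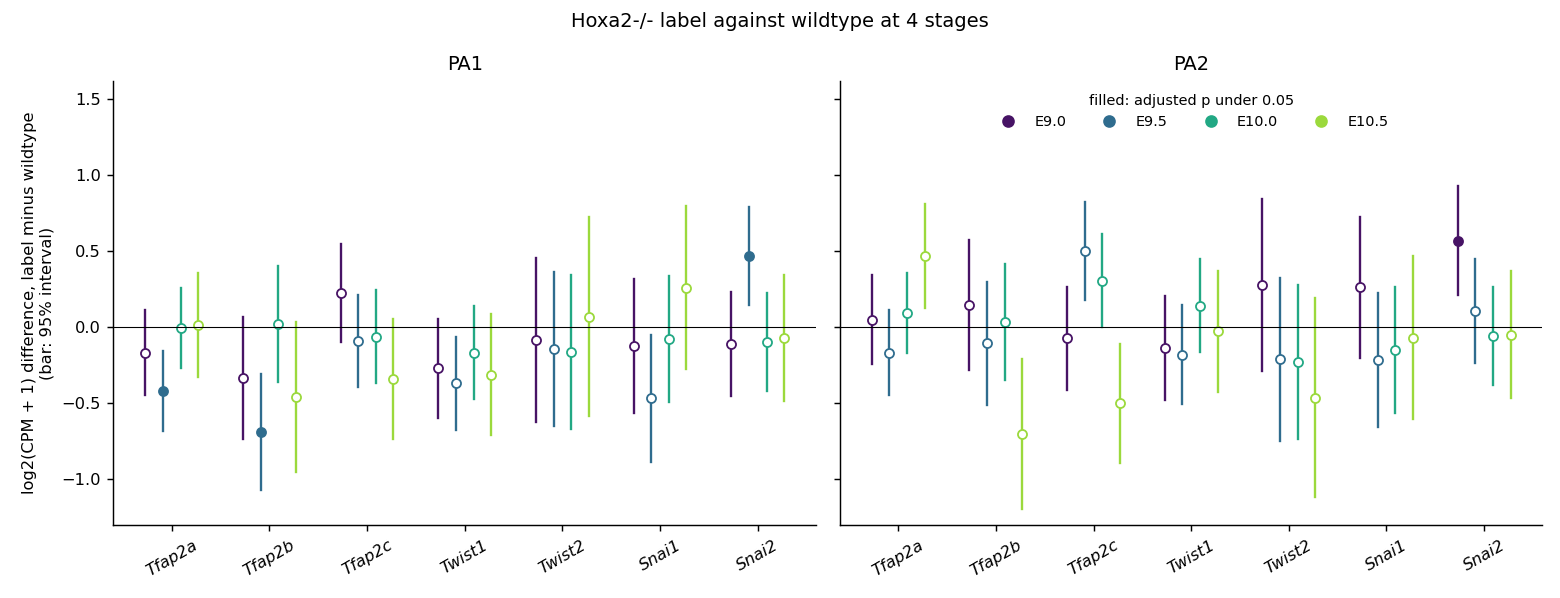
Differences between the Hoxa2-/- label and wildtype in log2(CPM + 1) for the 7 genes at 4 stages, with 95% intervals, in PA1 and in PA2. Filled points have an adjusted p under 0.05, and these are Tfap2a, Tfap2b and Snai2 in PA1 at E9.5 and Snai2 in PA2 at E9.0. At E10.0 the points lie between -0.17 and 0.02 in PA1 and between -0.23 and 0.30 in PA2.

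E10.0 is the stage at which the label does not run together with the division of the libraries. There the differences of the 7 genes lay between -0.17 and 0.02 in PA1 and between -0.23 and 0.30 in PA2, all with adjusted p of 0.65 or more. The 95% intervals of the AP-2 genes in PA2 at E10.0 were -0.18 to 0.35 for Tfap2a, -0.35 to 0.41 for Tfap2b and -0.0017 to 0.61 for Tfap2c, which had the largest difference of the 7 genes at this stage (0.30, adjusted p = 0.65). For Twist1 the interval was -0.17 to 0.45 and for Snai2 -0.39 to 0.26. The widest was that of Twist2, at -0.74 to 0.27.

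The calls at E9.5 in PA1 rested on few libraries. Tfap2b was at 9.83, 9.81, 5, 9.52 and 7.67 CPM under the label and at 12, 10.8, 22.3, 13.9 and 12.2 CPM in wildtype, with no overlap (-0.69, SE 0.19, adjusted p = 0.0062), and at -0.53 (adjusted p = 0.053) without wildtype embryo 3. Tfap2a was at 5.48, 6.17, 4.79, 3.91 and 5.36 CPM against 7.28, 6.1, 8.13, 9.78 and 5.29 CPM, which overlap (-0.42, SE 0.13, adjusted p = 0.015), and its call was lost without wildtype embryo 3 or 4 or embryo 4 with the label (adjusted p up to 0.085). Snai2 was at 36.9, 49.7, 104, 53.2 and 57.2 CPM against 45.4, 34.2, 39.2, 40.6 and 45 CPM (0.47, SE 0.16, adjusted p = 0.028). Without embryo 3 with the label, the library at 104 CPM, the Snai2 difference was 0.25 (adjusted p = 0.24), and the call was also lost without wildtype embryo 2 or 3. That same library had the highest surface epithelium sum of all, 1270 CPM, the lowest of its group for ectomesenchyme, 589 CPM, and the lowest Snai1 (5.29 CPM), Twist1 (30.8 CPM) and Tfap2b (5 CPM) levels of its group. In a fit of only the compared groups, 0 members passed in PA1. In PA2 at E9.0 Snai2 under the label was at 46.8, 34.8, 40.9 and 76.6 CPM against 38.4, 27.8, 31.2 and 30.7 CPM in wildtype (0.57, SE 0.18, adjusted p = 0.026), and its call was lost without the library at 76.6 CPM (0.34, adjusted p = 0.23) or without wildtype embryo 2, 4 or 5.

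At E10.5 several groups of 3 did not overlap although no member passed. The share of all tested genes without overlap was not counted, so this is a description only. Tfap2b in PA2 was at 14.3, 14.1 and 12.2 CPM under the label and at 24.9, 22.7 and 20.6 CPM in wildtype, 1.68 times as high (-0.71, SE 0.25, adjusted p = 0.054). This difference passed in a fit of only the compared groups (adjusted p = 0.0069). Tfap2c in PA2 was at 8.62, 9.44 and 7.15 CPM against 13.1, 13.2 and 10.6 CPM (-0.50, adjusted p = 0.092), and Tfap2a at 5.03, 5.28 and 5.75 CPM against 3.26, 4 and 3.55 CPM (0.47, adjusted p = 0.068). In PA1 at E10.5 Tfap2b was at 11.2 ± 0.653 CPM (SD, n = 3) against 15.8 ± 1.73 CPM in wildtype (SD, n = 3), without overlap (-0.46, adjusted p = 0.38), lower as in PA2. Twist2 in PA2 did not overlap either, with means of 20.4 CPM under the label and 28.5 CPM in wildtype. The same held in PA1 for Tfap2c (19.7 CPM and 25.1 CPM) and for Snai1 (10.1 CPM and 8.27 CPM), which was higher under the label.

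Lists of partners and of known or possible targets were read beside the members. Of 7 AP-2 cofactors and relatives, 1 was higher and 4 lower in wildtype PA2 at E9.0 (all genes 18.7%), the lower ones among them Cited1 (-0.97), Kctd15 (-0.62) and Kctd1 (-0.51). The higher one was Cited4, at 14.9, 134, 12.1 and 10.6 CPM in PA2 and 4.7, 17.4, 6.82, 5.04 and 9.08 CPM in PA1 (1.46, adjusted p = 0.015). The library at 134 CPM was the one with 53900 CPM of erythroid transcripts, and without it Cited4 did not pass (0.63, adjusted p = 0.32). The CITED proteins are coactivators of AP-2 and the KCTD proteins inhibit it. Between E9.0 and E10.5, Cited1 rose in wildtype PA1 (2.22) and PA2 (3.04), and Cited2 fell to 33.4 CPM in PA1 (-1.99) and also in PA2 (-2.10). Of 9 dimer partners and Id inhibitors of Twist factors, 2 were higher and 1 lower in wildtype PA2 at E9.0 (all genes 18.7%): Id4 (48.1 CPM against 16.3 CPM, 1.50), Id2 (0.81) and Tcf4 (-0.56). The neuron marker sum was also higher in PA2 at E9.0, at 99.9 to 197 CPM against 32.6 to 47.2 CPM in PA1 without overlap, as was the heart muscle sum in most libraries, and their part in these differences was not tested. The Id proteins bind and withhold the E proteins, such as the product of Tcf4, with which Twist factors pair. From E9.0 to E10.5, 5 rose and 3 fell in wildtype PA1, with Hand1 at 1.71 and Id1 at -0.97 (all genes 42.5%). In PA2 2 rose and 3 fell, with Tcf4 at 1.28 and Id4 at -1.95 (all genes 36.9%). The median difference over the Twist list from E9.0 to E10.5 was 0.50 in PA1 and -0.17 in PA2, against 0.00 and -0.01 over all genes.

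Of 12 Snail relatives, corepressors and turnover factors, 1 was lower in wildtype PA2 at E9.0, Limd1 (-0.32, all genes 18.7%). From E9.0 to E10.5, 2 of them rose and 3 fell in each wildtype arch, near the share over all genes (42.5% in PA1 and 36.9% in PA2). Ajuba, a Snail corepressor, was among those that fell, at -0.65 in PA1 and -0.70 in PA2. Among 16 epithelial genes listed as known or possible targets of Snail repression, 6 were higher and 1 lower in wildtype PA2 at E9.0 (all genes 18.7%), 6 higher at E9.5 (all genes 26.3%), 4 higher at E10.0 (all genes 5.94%) and none at E10.5 (all genes 1.52%). Without wildtype PA2 embryo 2 of E9.0, the library with 53900 CPM of erythroid transcripts, 7 were higher and 0 lower at E9.0. The tight junction genes Cldn3 (0.98), Cldn4 (0.96), Ocln (0.77) and Cldn6 (0.71) had the largest differences at E9.0. The pouch endoderm marker sum was also higher in PA2 at E9.0, at 75.0 to 116 CPM against 26.9 to 36.5 CPM in PA1 without overlap, and its part in these differences was not tested. From E9.0 to E10.5, 10 of the 16 fell and 3 rose in wildtype PA1 (all genes 42.5%) and 11 fell and 2 rose in wildtype PA2 (all genes 36.9%), with medians of -0.54 and -0.80 against 0.00 and -0.01 over all genes. The keratin gene Krt18 fell from 237 CPM to 75.2 CPM in PA1 (-1.62) and by -2.10 in PA2, and Grhl3, a factor of maturing epidermis, rose from 3.35 CPM to 27.7 CPM (2.86) in PA1 and by 3.65 in PA2. The list shares Epcam, Cdh1, Krt8 and Krt18 with the surface epithelium markers, whose sum was lower at E10.5 than at E9.0.

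Of 16 mesenchyme and crest genes listed beside Twist1 and AP-2, 1 was higher and 6 lower in wildtype PA2 at E9.0 (all genes 18.7%), led by Sox9 (40.5 CPM against 122 CPM, -1.58), the cartilage factor, and Prrx1 (-1.33). The list shares Prrx1, Prrx2, Pdgfra and Msx1 with the ectomesenchyme markers, whose sum was itself lower in PA2. The list was mixed in wildtype at E9.5 (all genes 26.3%). Fn1 (1.50) and Alx4 (9.72 CPM against 5.03 CPM, 0.91) were higher in PA2, and Prrx1 (-0.90) and Sox9 (-0.71) were lower. At E10.5, 4 were lower and none higher (all genes 1.52%), with Alx4 at 4.37 CPM against 46.3 CPM (-3.12), Msx2 (-2.10) and Msx1 (-1.54). Over the stages 6 rose and 4 fell in wildtype PA1 (all genes 42.5%), where Sox10, the factor of migrating crest and glia, went from 22.7 CPM to 0.598 CPM (-3.83) and Alx4 from 5.32 CPM to 46.3 CPM (2.89). In wildtype PA2, 7 rose and 4 fell (all genes 36.9%), with Sox10 at -3.09, the receptor gene Pdgfra at 2.06, Msx2 at -1.86 and Prrx1 at 1.74. Without wildtype PA2 embryo 2 of E9.0, 2 of this list were higher and 6 lower in PA2 at E9.0, and 4 higher and 2 lower at E9.5. Over the stages 7 then rose and 6 fell in wildtype PA2. No gene of any list passed between the label and wildtype at E10.0 in either arch.

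The genes most like each member across all 68 libraries were found by Pearson r of log2(CPM + 1) among 10511 named genes of at least 5 CPM. The libraries share stage, arch, depth and, in pairs, an embryo, so the values describe these libraries only. Twist2 was followed most closely by Kremen2 (r = 0.96), Bcl11a (0.96) and Lpar1 (0.95), and Bcl11a was the closest once each group's mean had been taken off (0.84). Tfap2c was closest to Nell2 (0.90), and with group means off its best value was 0.58 (Glrb). Tfap2a was closest to Cdc20 (0.82), Snai1 to Noc4l (0.82) and Snai2 to Lix1 (0.81), whereas Tfap2b (Tgif1, 0.65) and Twist1 (Bgn, 0.70) had no close match. Between members, r was 0.74 for Tfap2c and Twist2, -0.70 for Tfap2a and Snai2, -0.69 for Tfap2a and Twist2, -0.54 for Snai1 and Snai2, and 0.53 for Twist1 and Snai1. The last of these was also 0.53 with group means off.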

How the data were processed

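RNA was extracted with TRIzol and made into SMART-seq v4 and Nextera XT libraries, per the labels' protocols, with no molecular identifiers, so errors cover counting and replicate spread only. The submitters' processing notes name bcl2fastq 2.18, TopHat2 2.1.1, R 3.3.2 and mm10 without a role, and the counting tool, annotation and strand are not given in the sources used here. The authors deposited a normalized signal per gene and library, CPM on scaled library sizes with column totals of 926298 to 1051959. The values were whole multiples of 1 read within 0.01 reads in 100% of cases, so reads were recovered (8912251 to 20619153 per library). Because the unit was a scaled signal, the main test was on a log scale and the count test was an alternative.

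Genes at 1 CPM or more in at least 3 libraries (18428) entered a limma 3.58.1 fit (R 4.3.3) of log2(CPM + 1) on 16 group means over 68 libraries, with a trended prior, two-sided tests and p-values adjusted by Benjamini and Hochberg's method across all tested genes in each of 36 comparisons, at a threshold of 0.05. The pseudocount of 1 understates changes of low genes such as Twist2 at E9.0. edgeR 4.0.16 quasi-likelihood on recovered reads, other pseudocounts (0.25, 5), filters, scaling, an embryo block and leaving out each library were alternatives, and the tests were tested on simulated data. The 3 parts of the naming rule were all members, up to 4 genes a list by size of difference, and the 3 genes with the highest r per member. The 7 members and the lists were chosen with earlier results of these data known. The 2 tests of a change in the arch difference and 2 settings that leave out libraries (8 with blood or yolk sac transcripts, and both E9.5 libraries of embryo 4 with the label) were added after seeing the data. So was leaving out wildtype PA2 E9.0 embryo 2 alone, for Cited4 and for the list counts. Symbols, positions and lengths come from GENCODE annotation of GRCm38. Pairing of arches comes from the series text: libraries of 1 embryo had a median correlation of deviations of 0.35 over 33 pairs, 30 of them above 0.1, against -0.12 over 116 unpaired combinations. The embryo block leaves out the 2 embryos with 1 arch. Tfap2d and Tfap2e were not analysed here, and a gene named by the rule is not reported here.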

Additional observations from a re-analysis of the deposited data

Results flagged for a closer look

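In 84 groups of 4 or 5 libraries tested for a library far from the others, 8 such libraries were found, where chance gives about 1 in 20. Tfap2b was at 22.3 CPM in wildtype PA1 embryo 3 at E9.5 and at 15.7 CPM in PA2 embryo 1 with the Hoxa2-/- label at E9.5. Twist2 was at 22.4 CPM in wildtype PA1 embryo 1 at E10.0, at 8.29 CPM in wildtype PA2 embryo 5 at E9.5 and at 13.1 CPM in PA2 embryo 4 with the label at E9.5. Snai1 was at 20.1 CPM in wildtype PA1 embryo 4 at E9.5 and at 16.7 CPM in PA1 embryo 1 with the label at E10.0. Snai2 was at 55.8 CPM in wildtype PA1 embryo 4 at E9.0. In each case the named library was the highest of its group.

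The arch difference itself differed between E9.0 and E10.5 for Tfap2b, by 1.72 in wildtype and 1.00 under the label on the log2 scale, and for Tfap2a under the label by 0.80.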

How the results depend on the processing

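No difference of a member changed sign with a call. Over alternatives other than left-out libraries, 2035 of 2093 values kept their side of the threshold, 29 lost a call and 29 gained one. Over left-out libraries these numbers were 2344 of 2443, 68 and 31. The direction of values without a call in either fit was not compared. Calls between label and wildtype in PA1 went from 3 to 0 in a fit of only the compared groups. In PA2 they went from 1 to 2 with a pseudocount of 5, median-of-ratios scaling, only the compared groups or edgeR, and to 3 with a filter of 5 CPM. Stage calls under the label went from 17 to 9 with only the compared groups. The calls on the change of the arch difference went from 3 to 5 with the replicate block (embryo), while arch calls with that block were 9 against 8 in wildtype and 8 against 6 under the label. The causes were not tested. Leaving out 1 library at a time gave 7 to 9 arch calls in wildtype and 5 to 8 under the label, 0 to 5 label calls in PA1 (0 without wildtype PA1 E9.5 embryo 3, 5 without PA1 E9.5 embryo 1 with the label) and 0 to 2 in PA2, 0 to 0 for the difference of label effects, 21 to 24 wildtype and 13 to 18 label stage calls, and 1 to 4 on the change of the arch difference (1 without E10.5 embryo 3 with the label, PA1 or PA2). With 3 libraries a group at E10.5, intervals were wider than at other stages.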
